A study of Mus musculus with 6 samples.

Results

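The Notch receptors, ligands and targets comprised 10 genes, namely the receptors NOTCH1, NOTCH2 and NOTCH3, the ligands JAG1, JAG2 and DLL1, and the basic helix-loop-helix (bHLH) genes HES1, HES6, HEY1 and HEYL. They were taken by gene name from an expression array report that held 30854 names, and were read by 13 of its 45281 probes. The RNA came from C2C12 cells, an immortalized line of mouse myoblasts, which stop dividing and fuse to form myotubes in low serum. Cells received 60 nM of either a scramble siRNA or an siRNA against DJ-1, the protein encoded by Park7, were moved to differentiation medium 48 h later, and were collected after 4 days as myotubes. Each group held 3 arrays, called Scramble 1 to 3 and siDJ-1 1 to 3, and no other allele or agent was named for either group. Both groups are therefore transfected myotube cultures of a single cell line, and no untransfected culture was compared. The paper lists a single siRNA against DJ-1, and effects of this siRNA apart from the loss of DJ-1 were not tested. No source says whether the 3 arrays of a group came from separate cultures, so the p-values measure only the spread between these samples.

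Notch is a receptor that is cut after it binds a ligand on a neighbouring cell, which frees an intracellular domain that enters the nucleus and joins the DNA-binding protein RBPJ and a Mastermind coactivator. HES1, HEY1 and HEYL are transcriptional repressors that this complex can switch on, whereas HES6 is a related bHLH factor that antagonizes HES1 and is known to promote myogenic differentiation. In muscle, Notch signalling is known for keeping satellite cells and myoblasts undifferentiated.

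Park7, the targeted gene, read 12020, 10900.4 and 12251 signal units under scramble siRNA and 5935, 6586 and 4234 under DJ-1 siRNA. All 3 siDJ-1 arrays lay below all 3 Scramble arrays, and the normalized log2 signal fell by 1.16 (SE 0.14, limma adjusted p = 0.0034), to 44.7% of the scramble level. Signals in this report are the deposited mean brightness over the beads of a probe. Log2 values are background-corrected and quantile-normalized, and log2 fold changes are siDJ-1 minus scramble. A probe counted as detected on an array when its detection p was under 0.05, as tested when it was detected on at least 3 of the 6 arrays, and as called when its limma p, adjusted over all 17890 tested probes, was under 0.05.

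Of the 13 member probes, 10 were detected on all 6 arrays, 11 were tested, and the 2 NOTCH2 probes were detected on none. After DJ-1 knockdown HEYL and HES6 were lower among the targets and bHLH factors, and NOTCH3 among the receptors was called higher by a small margin. Of the 11 tested probes 4 were called lower and 1 higher, against 13.6% called lower and 16.5% called higher of all tested probes, where 30.1% were called in either direction. The 4 lower calls came from 2 genes, since 3 of them were HES6 probes. For 7 of the 11 tested probes the ranges of the groups were separate, while 48.5% of all tested probes had separate ranges. Of these 7 probes, 5 were lower in siDJ-1, 3 of them HES6 probes, and 2 were higher. The median log2 fold change was -0.38 over the 11 member probes and 0.05 over all tested probes. HES6 enters the member median 3 times, and its value is that of the HES6 probe ILMN_2608043. By gene, HEYL, HES1, HES6 and JAG1 had log2 fold changes below 0, and NOTCH1, NOTCH3, JAG2, DLL1 and HEY1 had values above 0. The HEYL call was kept in each of the 6 fits that left out an array (adjusted p up to 0.022), while the NOTCH3 and HES6 calls were lost in some or all of them, which gave 0 members called higher and 1 to 4 called lower.

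**Figure D1:**
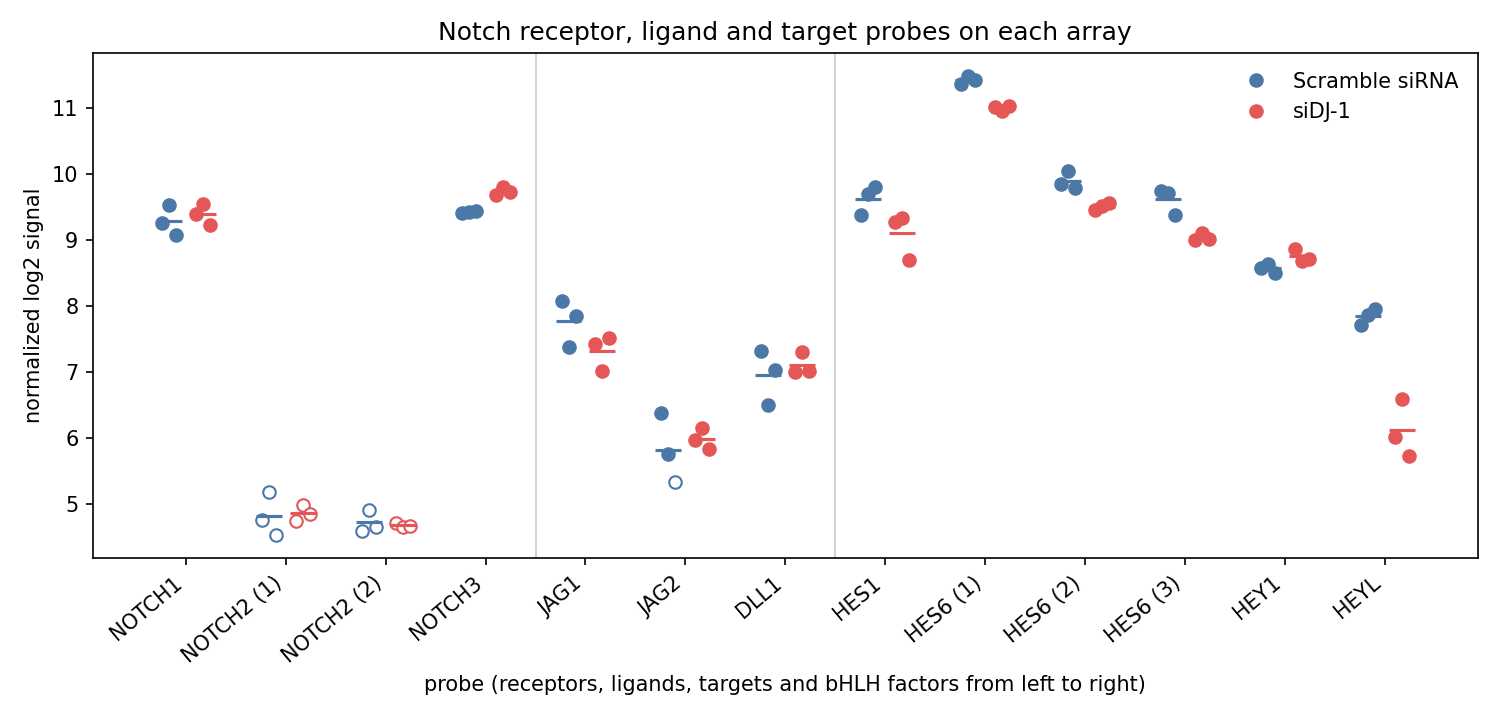
Normalized log2 signal (vertical axis) of each of the 13 member probes on each array, with Scramble arrays in blue, siDJ-1 arrays in red, bars at the group means, and open points where the probe was not detected; numbers in parentheses tell probes of a gene apart. The 3 siDJ-1 points of HEYL, from 5.73 to 6.59, lie below its 3 Scramble points, from 7.71 to 7.95, and both NOTCH2 probes are open on every array.

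Among the receptors, NOTCH3, which is known from satellite cells and vascular smooth muscle, read 846, 848 and 810.0 under scramble siRNA and 944, 1121 and 851 under DJ-1 siRNA. All 3 siDJ-1 signals were above the Scramble signals, although siDJ-1 3 exceeded the brightest Scramble array only slightly. Normalized log2 values averaged 9.42 ± 0.02 (SD, n = 3) in Scramble and 9.73 ± 0.06 (SD, n = 3) in siDJ-1. The difference of 0.31 (SE 0.09, limma adjusted p = 0.042) was 24.1% higher than scramble. This call was lost in each of the 6 fits that left out an array, with adjusted p between 0.072 and 0.11 and log2 fold changes between 0.28 and 0.34. It was also lost with no filter (adjusted p = 0.097, within 0.020 to 0.11 over its alternatives) and with the replicate numbers as a block. Of all tested probes, 48.9% had a log2 fold change at least as large in size.

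NOTCH1, the receptor best known for holding satellite cells in quiescence and self-renewal, read 774, 900 and 662 under scramble siRNA and 796, 953 and 637 under DJ-1 siRNA. The groups overlapped, and the log2 fold change of 0.10 (95% confidence interval -0.25 to 0.46) was not called (limma adjusted p = 0.64). The 2 NOTCH2 probes lay between 118 and 172 signal units on all 6 arrays, where no array detected them, so no comparison was made for that receptor.

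The ligands JAG1, JAG2 and DLL1 are membrane proteins that present the signal to the receptor of the adjacent cell. JAG1 read 421, 316 and 356 under scramble siRNA and 304, 276 and 281 under DJ-1 siRNA. Every siDJ-1 signal was below every Scramble signal, but after normalization Scramble 2, at 7.38, fell within the range of the siDJ-1 arrays, at 7.01 to 7.51. The log2 fold change of JAG1 was -0.45 (95% confidence interval -0.96 to 0.06, limma adjusted p = 0.15), which was not called. It was -0.27 without background correction (adjusted p = 0.093) and -0.30 without Scramble 1 or siDJ-1 2 (adjusted p = 0.32 and 0.36), with adjusted p from 0.052 to 0.36 over its alternatives.

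DLL1, a Delta-type ligand, read from 235 to 303 in Scramble and from 236 to 307 in siDJ-1. Its log2 fold change was 0.15 (95% confidence interval -0.37 to 0.67, limma adjusted p = 0.63). JAG2 was dim, at 164 to 223 in Scramble and 175 to 213 in siDJ-1, and was detected on 2 of the 3 Scramble arrays and on 3 of 3 siDJ-1 arrays. Its log2 fold change was 0.16 (95% confidence interval -0.46 to 0.78, limma adjusted p = 0.68). The groups overlapped for both ligands, and a change within these wide intervals was not detectable with 3 arrays a group.

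Among the targets, HEYL read 354, 386 and 371 under scramble siRNA and 196, 241 and 172 under DJ-1 siRNA. All 3 siDJ-1 arrays were below all 3 Scramble arrays, and siDJ-1 3 was the lowest. Normalized log2 values averaged 7.84 ± 0.12 (SD, n = 3) in Scramble and 6.11 ± 0.44 (SD, n = 3) in siDJ-1. HEYL fell by 1.73 on the log2 scale (95% confidence interval -2.25 to -1.21, limma adjusted p = 0.0038), to 30.2% of the scramble level. Of all tested probes, 0.587% had a log2 fold change at least as large in size. The size depended on the background correction, and the siDJ-1 signals had detection p up to 0.011. Without that correction the log2 fold change was -0.83 (adjusted p = 8.4e-05), and over the 13 alternatives that kept the probe it was called each time, with adjusted p from 3.3e-05 to 0.022.

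HES6 was read by 3 probes. ILMN_2791952 read 2782, 3019 and 2790.2 under scramble siRNA and 2226, 2382 and 2002 under DJ-1 siRNA. ILMN_2608043 read 1086, 1215 and 983 under scramble siRNA and 827, 934 and 773 under DJ-1 siRNA. ILMN_1214126 read 1024, 1012 and 782 under scramble siRNA and 637, 744 and 568 under DJ-1 siRNA. For each of the 3 probes, all siDJ-1 arrays were below all Scramble arrays.

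In the order given, the 3 HES6 probes fell by 0.42 (SE 0.09), 0.38 (SE 0.11) and 0.57 (SE 0.13) on the log2 scale, with limma adjusted p of 0.017, 0.037 and 0.018. They stood at 74.8%, 76.7% and 67.4% of the scramble level. Of all tested probes, 35.8%, 39.9% and 22.9% had a log2 fold change at least as large in size. The 3 HES6 probes share the RNA of the same samples and are not independent of each other. Leaving out 1 array kept the calls in 2, 1 and 3 of 6 fits, with adjusted p up to 0.067, 0.13 and 0.070. The first probe lost its call without Scramble 2 or any siDJ-1 array, the second without any array but Scramble 3, and the third without Scramble 2, siDJ-1 1 or siDJ-1 3. Scaling to the 75th percentile in place of quantiles gave adjusted p of 0.065 and 0.061 for the first pair of probes, and with no filter the second had an adjusted p of 0.085. The second probe also lost its call with the replicate numbers as a block.

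HES1, the classical Notch target, read 833, 999 and 999 under scramble siRNA and 746, 844 and 474 under DJ-1 siRNA. After normalization every siDJ-1 array was below every Scramble array, with siDJ-1 3 the lowest at 8.70. The log2 fold change was -0.52 (95% confidence interval -1.01 to -0.04), but its adjusted p of 0.094 in limma was not under the threshold. HES1 was called in 3 of 14 alternatives, namely both without background correction and the fit with a variance trend, with adjusted p of 0.027, 0.026 and 0.021, within a range of 0.021 to 0.21. Without siDJ-1 3 its log2 fold change was -0.32 (adjusted p = 0.21).

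HEY1 read from 485 to 556 in Scramble and from 479 to 593 in siDJ-1. After normalization its siDJ-1 arrays, at 8.69 to 8.87, were above its Scramble arrays, at 8.50 to 8.63, and its log2 fold change of 0.19 (95% confidence interval -0.05 to 0.43, limma adjusted p = 0.20) was not called. With the 75th percentile and no background correction it was 0.12 (adjusted p = 0.32, within 0.14 to 0.47 over its alternatives). The related repressors HEYL and HEY1 thus had log2 fold changes of opposite sign in these arrays, and the difference between them was not tested.

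**Figure D2:**
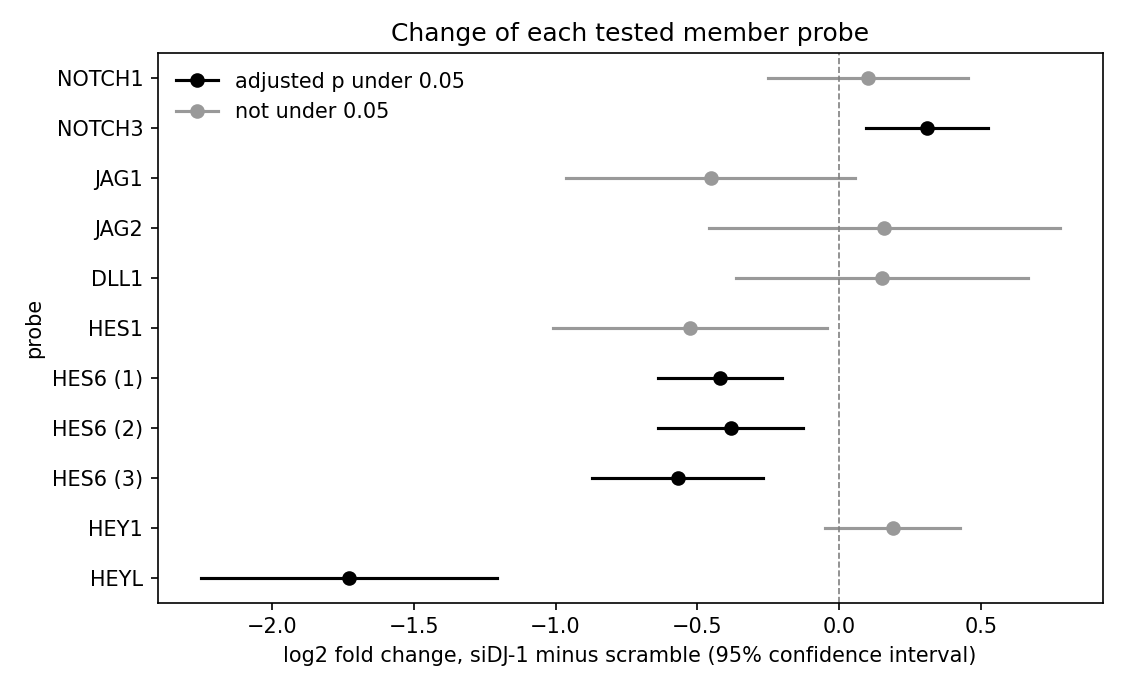
Log2 fold change of each of the 11 tested member probes (horizontal axis, siDJ-1 minus scramble) with its 95% confidence interval from the fit, in black where the adjusted p was under 0.05 and in grey otherwise. HEYL, at -1.73, lies furthest from 0, and the 3 HES6 probes lie between -0.57 and -0.38.

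**Figure D3:**
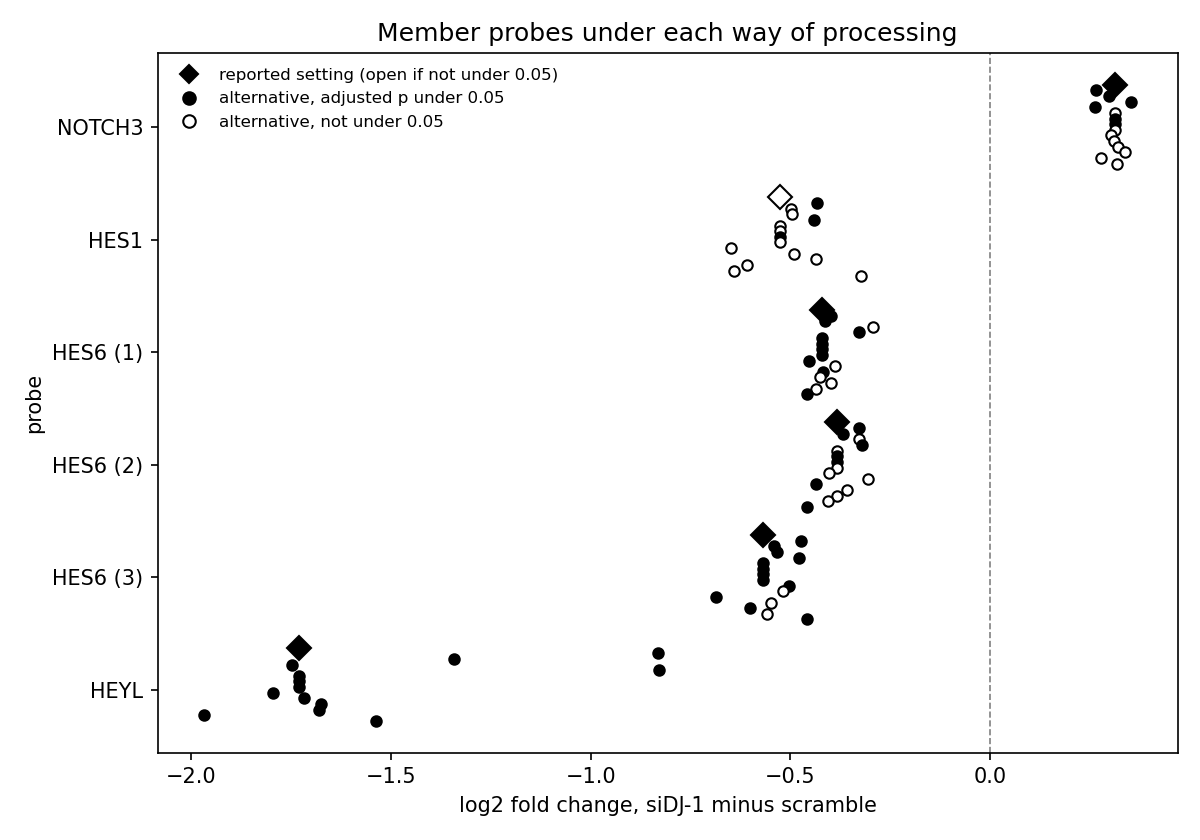
Log2 fold change (horizontal axis) of the NOTCH3, HES1, HES6 and HEYL probes under the reported processing (diamonds) and under each alternative (circles), filled where the adjusted p was under 0.05; vertical offsets only separate the points. HEYL is filled throughout, from -1.97 to -0.83, while NOTCH3 and the HES6 probes hold filled and open circles.

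Because the 3 HES6 probes moved together, the RefSeq sequence (GRCm38.p6) just before the outermost start of HES6 is shown. RefSeq windows were at hand for 7 of the 10 genes, as 9 windows of 250 bases ending just before a start, 5 of them at the outermost start of the gene. The other 4, among them that of NOTCH3 and a second one of HES6, lie wholly or partly downstream of the outermost start. HES1, HEY1 and HEYL had no entry. The motifs sought on both strands were TGGGAA, the core to which RBPJ binds, CANNTG, the E-box of myogenic bHLH factors, and CACNAG, the N-box of HES proteins. TGGGAA was in 0 of the 9 windows and in 21.6% of all 32851 windows of that length, CANNTG was in 5 of 9 and in 66.2% of all, and CACNAG was in 4 of 9 and in 36.7% of all. Capitals mark CANNTG, and no marked match overlaps another. The sequence, at chr1:91414039-91414288, runs 5′ to 3′ on the minus strand.
HES6: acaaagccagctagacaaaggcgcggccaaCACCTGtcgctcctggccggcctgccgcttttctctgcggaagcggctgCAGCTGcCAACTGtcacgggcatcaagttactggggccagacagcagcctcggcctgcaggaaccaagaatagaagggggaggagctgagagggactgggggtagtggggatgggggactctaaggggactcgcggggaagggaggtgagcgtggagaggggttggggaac

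This HES6 window holds 3 E-box matches, which begin 220, 171 and 164 bases before the start. A match describes the letters of a window and was not tested as a binding site.

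The array profile over the 6 arrays, centred on its own mean, was compared between 1 probe of each of the 8 members with a probe detected on all 6 arrays and the tested probes of other genes by the root mean square difference of normalized log2 values, as a description without a test. For HEYL the nearest profiles were those of Pmepa1, at 0.10, and Plac8, at 0.10. For HES6 at ILMN_2791952 they were those of Acot7, at 0.03, and 1110002D22RIK, at 0.03. For NOTCH3 they were those of Nbr1, at 0.03, and Sec24b, at 0.03, and for HES1 those of Ttc8, at 0.04, and Cbx5, at 0.08.

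The rest of the pathway was described by a list of 56 other Notch pathway genes grouped by role, of which 54 were matched on the array by 108 probes. Of the 52 tested probes, which covered 36 genes, 11 were called higher and 4 lower in siDJ-1, and 37 were not called. The share called, 28.8%, was near the 30.1% of all tested probes and is not a result about the list. The median log2 fold change of the 52 probes was 0.17, compared with 0.05 over all tested probes. Groups were separate at 15 higher and 8 lower probes, or 44.2%, against 48.5% of all tested probes. Neither the members nor this list was tested as a set.

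Other receptors and ligands were near background. Dlk2, a Delta-like gene named after its values were seen because it held the 1 tested probe of these roles, read from 189 to 261 in Scramble and from 185 to 226 in siDJ-1. The groups overlapped, and its log2 fold change of -0.01 (95% confidence interval -0.80 to 0.77, limma adjusted p = 0.98) was not called. NOTCH4 was read by 2 probes. For ILMN_1220697 the signals were 180, 244 and 194 under scramble siRNA, 2 of which detected it, and 162, 169 and 148 under DJ-1 siRNA, none of which did. ILMN_1256134 was detected on 1 Scramble array and 0 siDJ-1 arrays. Its signals, at 146.9 to 196.6 in Scramble and 137.9 to 146.5 in siDJ-1, were separate, but its groups overlapped after normalization. Neither NOTCH4 probe was tested. Dll3 and Dll4, the other Delta-type ligands, were detected on 0 of 6 arrays. The target genes Hes5, Hes7, Hey2, Hes2 and Hes3 were likewise detected on 0 of 6 arrays by any of their 7 probes.

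Of the receptor glycosylation genes, 2 of 4 tested probes were called lower, where 13.6% of all tested probes were. Poglut1, which adds O-glucose to the Notch extracellular domain, read 2117, 2278 and 1959 under scramble siRNA and 1332, 1587 and 1061 under DJ-1 siRNA. All 3 siDJ-1 arrays lay below the Scramble arrays, and Poglut1 fell by 0.75 on the log2 scale (SE 0.11, limma adjusted p = 0.0056). Pofut1, which adds O-fucose, fell by 0.45 (SE 0.12, limma adjusted p = 0.035) at ILMN_2599360, a call kept without Scramble 1 and lost without any other array (adjusted p 0.046 to 0.10), and made in 4 of 14 alternatives. The other tested Pofut1 probe, at -0.46, was not called (limma adjusted p = 0.090), and was -0.26 without background correction (adjusted p = 0.062, within 0.055 to 0.23 over its alternatives). Without background correction ILMN_2599360 was at -0.18 (adjusted p = 0.11, within 0.018 to 0.15 over its alternatives). Lfng, a fringe glycosyltransferase, was detected on 0 of 6 arrays.

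Of the proteases and the gamma-secretase that cut the receptor, 2 of 9 tested probes were called, both higher. The share called, 22.2%, was below the 30.1% of all tested probes and is not a result about this role. Groups were separate at 3 higher and 2 lower probes, or 55.6%, against 48.5% of all tested probes. Aph1b, a gamma-secretase subunit, read 590.2, 551 and 643 under scramble siRNA and 862, 871 and 793 under DJ-1 siRNA. Its groups did not overlap, and it rose by 0.70 on the log2 scale (SE 0.14, limma adjusted p = 0.012). Psen2, a catalytic subunit of that enzyme, rose by 0.48 (SE 0.13, limma adjusted p = 0.031), a call lost without Scramble 2, Scramble 3, siDJ-1 1 or siDJ-1 2, with adjusted p from 0.029 to 0.11 over the fits that left out an array, and with no filter (adjusted p = 0.070). The sheddases Adam10 and Adam17 were not called, with log2 fold changes of 0.07 (-0.10 to 0.29 over its alternatives) and -0.15 (-0.25 to -0.023).

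Of the ligand endocytosis genes, 2 of 4 tested probes were called higher, where 16.5% of all tested probes were. Mib2, a ubiquitin ligase for Notch ligands, read 2407, 2434 and 2298 under scramble siRNA and 3301, 3687 and 3190 under DJ-1 siRNA. Each siDJ-1 array was above each Scramble array, and Mib2 rose by 0.51 (SE 0.09, limma adjusted p = 0.0091). Neurl2, a neuralized-family gene of muscle, rose by 0.77 (SE 0.14, limma adjusted p = 0.011). In the nuclear complex, 0 of 7 tested probes were called by limma, where 30.1% of all tested probes were, and 0 had an unadjusted p under 0.05. The 3 Rbpj probes were not tested, as 1 of them was detected on 1 array and the others on none. Maml1, a Mastermind coactivator, had non-overlapping groups and a log2 fold change of 0.37 (SE 0.16), but was not called (limma adjusted p = 0.13). It was 0.22 without Scramble 1 (adjusted p = 0.26), 0.23 without background correction (adjusted p = 0.092) and 0.21 with the 75th percentile as well (adjusted p = 0.13), within 0.078 to 0.33 over its alternatives.

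Corepressors, the role with the most tested probes, had 6 of 14 called higher, all from Tle1 and Cir1, where 16.5% of all tested probes were called higher. Tle1, a Groucho-family corepressor that HES proteins recruit, read 261, 267 and 268 under scramble siRNA and 409, 418 and 452 under DJ-1 siRNA at ILMN_1245089. The groups were far apart, and this probe rose by 1.26 (SE 0.17, limma adjusted p = 0.0045), with the other called Tle1 probes at 1.01 and 0.93. Cir1, which interacts with RBPJ in its repressive state, read 390.3, 373 and 344 under scramble siRNA and 637, 624 and 574 under DJ-1 siRNA at ILMN_3103784. It rose by 1.12 (SE 0.11, limma adjusted p = 0.0028), with its other probes at 1.21 and 0.87. The calls of all 6 probes held in each of the 14 alternatives. Without background correction and with scaling to the 75th percentile, the Tle1 probe described first was at 0.74 and ILMN_2599402, reported at 1.01, was at 0.62. The Tle1 probe at 0.93, the Cir1 probe at 0.87 and the corepressor Spen were named after their values were seen, because they complete the calls of this role. Spen fell by 0.93 (SE 0.22, limma adjusted p = 0.024), a call lost without Scramble 3, siDJ-1 1 or siDJ-1 3 (adjusted p 0.014 to 0.079 over the fits that left out an array) and with no filter (adjusted p = 0.051). Without background correction the Spen value was -0.36 (adjusted p = 0.017, within 0.011 to 0.079 over its alternatives).

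Among negative regulators, 1 of 13 tested probes was called higher and 1 lower. The share called, 15.4%, was below the 30.1% of all tested probes. Fbxw7, a ubiquitin ligase subunit that targets the Notch intracellular domain, read 390.4, 537 and 531 under scramble siRNA and 317, 353 and 253 under DJ-1 siRNA. The groups did not overlap and Fbxw7 fell by 0.92 (SE 0.22, limma adjusted p = 0.024). Numbl, related to the Notch antagonist Numb, rose by 0.74 (SE 0.21, limma adjusted p = 0.039). Each of these calls was lost without Scramble 2, Scramble 3, siDJ-1 1 or siDJ-1 3, with adjusted p from 0.0076 to 0.085 for Fbxw7 and from 0.021 to 0.12 for Numbl over the fits that left out an array, and with no filter (adjusted p = 0.053 and 0.084). Without background correction Fbxw7 was at -0.59 (adjusted p = 0.0041, within 0.0025 to 0.085 over its alternatives) and Numbl at 0.29 (adjusted p = 0.028, within 0.021 to 0.12). The Numb probe, at 0.08 (0.05 to 0.14 over its alternatives), and Nrarp, a feedback target of Notch, at 0.25 (-0.099 to 0.53), were not called.

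**Figure D4:**
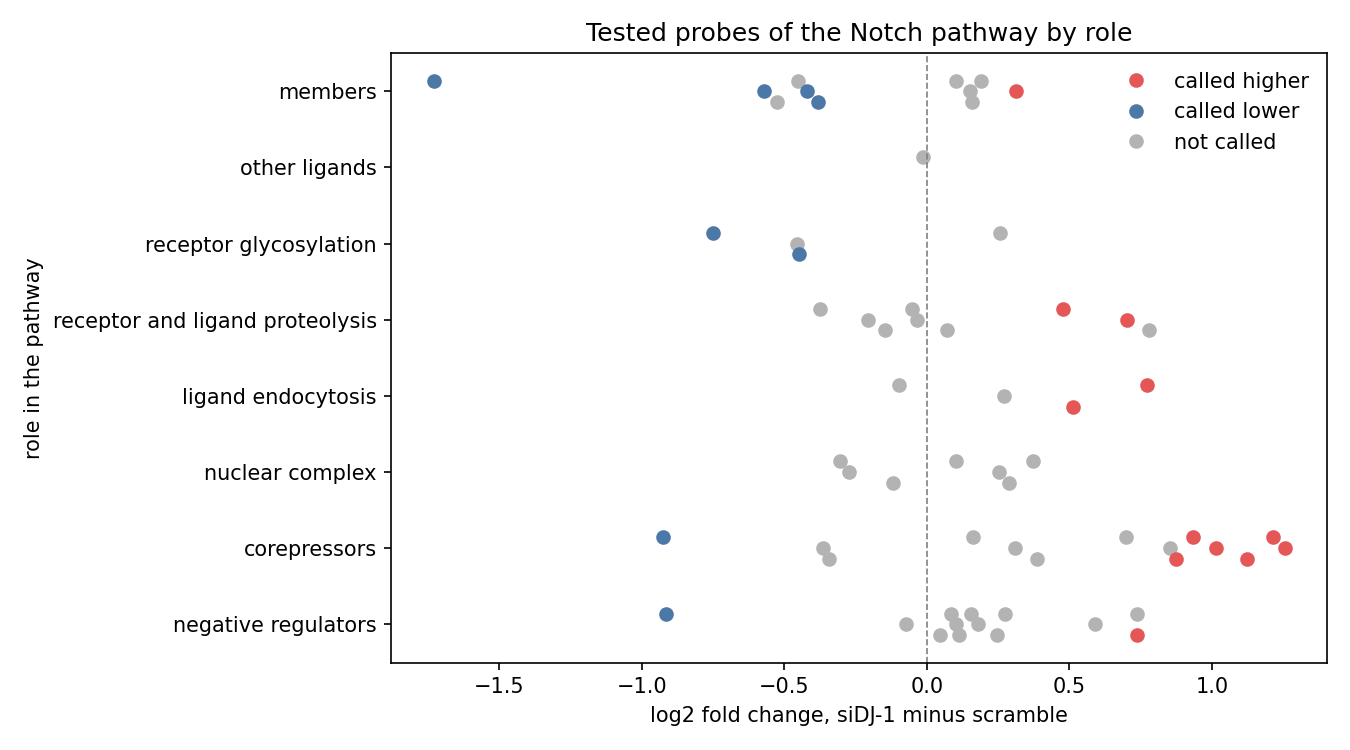
Log2 fold change (horizontal axis, siDJ-1 minus scramble) of each tested probe of the 10 member genes and of the 52 tested probes of the pathway list, by role, in red where called higher, blue where called lower and grey where not called; vertical offsets only separate the points. Of the corepressor probes, 6 are red, from 0.87 to 1.26, and the nuclear complex holds grey points alone.

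The cell type label was checked against marker genes. All 10 probes of the 8 myotube genes were detected on all 6 arrays, among them Acta1, skeletal muscle actin. Their summed signal was 205553, 225640 and 198592 under scramble siRNA and 187671, 215836 and 166993 under DJ-1 siRNA, and 3 of 10 were called lower, against 13.6% of all tested probes. The lower probes were Tnnc2, Des and Tnnt3, contractile and cytoskeletal genes, at -0.82, -0.56 and -0.52 on the log2 scale, of which Tnnt3 lost its call without siDJ-1 3 (adjusted p = 0.053, within 0.00013 to 0.053 over its alternatives). Des lost its call under scaling to the 75th percentile, at -0.32 (adjusted p = 0.055, within 8.7e-06 to 0.055 over its alternatives). Of the myogenic factors, 6 of 8 tested probes were called lower, where 13.6% of all tested probes were, with Mef2c at -2.61, -2.48, -2.37 and -0.52 on the log2 scale, Myod1 at -0.90 (SE 0.10, limma adjusted p = 0.0032) and Myf6 at -0.66, and their summed signal over 10 probes was 13625, 14035 and 13135 under scramble siRNA and 7526, 8517 and 5982 under DJ-1 siRNA. Myod1 and the first 3 Mef2c values were called in each of 14 alternatives (the first at -1.73 without background correction), Myf6 and the last Mef2c value were called in 6 and 2 of 13 alternatives and lost the call in 4 and 5 of the 6 fits that left out an array and without background correction (at -0.23 and -0.16), and Myog was not called at either probe, at 0.22 (0.13 to 0.28 over its alternatives) and -0.11 (-0.16 to 0.024).

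Markers of undifferentiated myoblasts gave 1 call among 3 tested probes, where 30.1% of all tested probes were called in either direction. Cd34 was called at 0.54 (limma adjusted p = 0.024), a call lost in 4 of 6 fits that left out an array and with no filter (adjusted p = 0.053). Pax7 was detected on 0 of 6 arrays. Cdh15, at -0.30 (limma adjusted p = 0.081), and Sdc4, at 0.22 (limma adjusted p = 0.17), were not called, although after normalization the siDJ-1 arrays of Cdh15 were all below and those of Sdc4 all above the Scramble arrays, and 4 and 1 of 14 alternatives called them. Over these, Cdh15 ranged from -0.39 to -0.18 and Sdc4 from 0.15 to 0.34. The summed signal over all 5 probes of the undifferentiated myoblast markers was 6459, 7122 and 6490.0 under scramble siRNA and 6230, 7032 and 5912 under DJ-1 siRNA. Of the proliferation markers 1 of 7 tested probes was called lower, where 13.6% of all tested probes were. This Ccnb1 probe, at -0.57, lost its call without siDJ-1 1 or siDJ-1 3 (adjusted p = 0.058 and 0.056, within 0.0010 to 0.058 over its alternatives). The other Ccnb1 probe, at -0.31 (-0.40 to -0.17 over its alternatives), was not called. Mki67, at 0.47 and 0.20, Top2a, at 0.25 and 0.23, and Cdk1, at 0.30, were not called either. Of these 5 probes all but Mki67 at 0.20 had, after normalization, all siDJ-1 arrays above all Scramble arrays. The called Ccnb1 probe had all siDJ-1 arrays below all Scramble arrays. Ranges were separate, in either direction, for 48.5% of all tested probes. Over their alternatives the Mki67 probes ranged from 0.15 to 0.57 and from 0.11 to 0.26, the Top2a probes from 0.14 to 0.28 and from 0.17 to 0.27, and Cdk1 from 0.24 to 0.40. Of 14 alternatives, 5 called Cdk1 and 1 called Top2a at 0.25. The summed signal over all 11 probes of the proliferation markers was 6553, 6868 and 5972 under scramble siRNA and 6071, 7308 and 5563 under DJ-1 siRNA.

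Fibroblast markers were lower too. All 4 tested probes, 2 of them of Dcn, were called lower, where 13.6% of all tested probes were, with decorin, Dcn, the list's gene with the highest signal on the Scramble arrays, at -1.79 and -1.34 on the log2 scale, Col1a1 at -0.47 and Pdgfra at -0.58, and Thy1 was detected on 0 of 6 arrays. The Dcn calls held in each of 14 alternatives, while Col1a1 and Pdgfra lost theirs in 7 and 8 of 14, among them 4 and 5 of the 6 fits that left out an array. Their summed signal over 10 probes was 11796, 11661 and 10423 under scramble siRNA and 6182, 7926 and 4982 under DJ-1 siRNA. In bulk RNA, fewer cells of a type and less RNA per cell cannot be told apart, and the part of these markers and of the lower myogenic factors in the lower HEYL and HES6 signals was not tested. Endothelial and adipocyte markers had 0 tested probes among 7 and 3, and macrophage markers 1 among 9, which was not called.

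The arrays themselves differed by group. Scramble arrays detected 16985, 17399 and 18179 probes and siDJ-1 arrays 18704, 18857 and 18408. Bead noise, as the median over probes of the standard error over beads, came to 11.3, 8.30 and 8.66 signal units under scramble siRNA and 7.17, 6.36 and 5.88 under DJ-1 siRNA, so that each Scramble array was noisier than each siDJ-1 array. Its part in the member results was not tested. Member probes were read by 26 to 52 beads on each array.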

How the data were processed

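RNA of 3 Scramble and 3 siDJ-1 samples was measured on an Illumina Mouse WG-6 V2 array. The authors labelled and hybridized the RNA on a single BeadChip and exported, without normalization, the deposited mean signal intensity of each probe, its standard error over beads, its number of beads and a detection p-value, the deposited p-value against negative control probes. From these, limma 3.58.1 in R 4.3.3 corrected the background (normal-exponential model, controls inferred from the detection p-values, offset 16), applied quantile normalization and took log2. The 17890 of 45281 probes that reached detection (p under 0.05) on 3 or more arrays were fitted by lmFit and eBayes (siDJ-1 minus scramble), with Benjamini-Hochberg adjustment over all of them and a threshold of 0.05. The fit was tested on simulated data. The number of arrays limits the precision.

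Members are the probes whose name in the file, ignoring case, is a listed gene, each kept separately. Other genes were matched by name, gene identifier or accession through a RefSeq table (GRCm38.p6), which named 32345 probes. No probe sequence was used. Named pathway genes were a preset group plus, for each role, up to 4 called probes with non-overlapping groups and the largest changes; the remaining called corepressor probes, Dlk2 and a further Pofut1 probe were added after their values were seen. The members and lists were chosen with earlier results of these data known. Some genes of the planned list are not reported here. Alternatives changed the background correction, scaling, filter, variance trend and replicate block, averaged the probes of a gene, or left out each array.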

Additional observations from a re-analysis of the deposited data

How the results depend on the processing

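Over 821 alternative values of the single-probe log2 fold changes, 702 kept their direction and side of the threshold, 95 lost the call, 14 gained one and 10 changed sign. The changes of sign were in probes that were not called. Leaving out each array gave ranges of -0.0010 to 0.22 for NOTCH1, -0.085 to 0.44 for JAG2, -0.072 to 0.34 for DLL1, -0.10 to 0.29 for Adam10, -0.32 to 0.36 for Dlk2 and -0.099 to 0.53 for Nrarp, and Myog at ILMN_2863674 was 0.024 with background correction and scaling to the 75th percentile. Probes called across the array numbered 5387, with 3519 when no filter was applied, 2564 to 5290 when an array was left out, and 6470 at most, with the variance trend. Members called lower numbered 4, with 2 under the 75th percentile, 1 to 4 with an array left out, 3 with no filter, the strict filter or the block, and 5 with the variance trend and in both fits without background correction. The 1 member called higher became 0 without the filter and 0 in each fit with an array left out. Pathway probes called lower numbered 4, with 1 without the filter, 1 to 4 with an array left out, 3 with the block or with the 75th percentile and no background correction, 5 with the offset of 50 and 6 with the strict filter. Fits without an array have fewer samples, the fit without the filter tested more probes, and the strict filter removed HEYL; for the other settings the cause was not tested.

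No source says that the replicate numbers pair the samples. Deviations from the group means correlated at 0.05, 0.05 and 0.02 between same-numbered arrays, although each array correlated best with its own number, and median signals were 162, 167 and 154 for Scramble 1 to 3 and 161, 167 and 152 for siDJ-1 1 to 3. With the replicate block 4350 probes were called, the 1 member called higher became 0 (NOTCH3, adjusted p = 0.088, within 0.020 to 0.11 over its alternatives), and 3 members were called lower, as HES6 at ILMN_2608043 lost its call (adjusted p = 0.072, within 0.011 to 0.13). The strict filter removed HEYL and JAG2. Signal over background limits HEYL, JAG2 and NOTCH2 most.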
